A study of Homo sapiens with 4 samples.

Results

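Guidance genes were followed in the human breast cancer line MDA-MB-231 after transduction with either a scrambled short hairpin RNA (shCntrl, n = 2 arrays) or a TRPM7 hairpin (shT7#1, n = 2 arrays). The TRPM7 protein is an ion channel that carries magnesium, calcium and zinc and ends in a kinase. The genes were chosen by symbol: every semaphorin, plexin, EPHA or EPHB receptor and EFNA or EFNB ephrin on the array, with NRP1, NRP2, SLIT1 to SLIT3, ROBO1 to ROBO4, NTN1, NTN4, UNC5B and DCC. The choice gave 64 genes with 107 probes, of 30925 named genes and 47323 probes on the array. Of the 64 genes, 38 had a probe above background on at least 2 of the 4 arrays and were tested. NTN1 and UNC5B passed through the shCntrl arrays alone and ROBO1 through the shT7#1 arrays alone, so a difference was built into their selection. All 4 arrays held the same line, grown in serum and transduced with a hairpin, and a single TRPM7 hairpin was used.

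These families were found as cues that steer growing axons and vessels, and epithelial and tumour cells use them to control adhesion, shape and movement. Semaphorins signal through plexins, with neuropilins as co-receptors of the secreted class. Ephrins are tethered to the cell surface and bind Eph receptor tyrosine kinases on neighbouring cells, while slits bind ROBO receptors and netrins bind DCC and UNC5 receptors. Most of these receptors act on the cytoskeleton.

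On each array, between 19492 and 20261 probes were above background (detection p below 0.05 against negative control beads). Correlations over the 14731 tested genes were 0.994 and 0.993 within groups and between 0.982 and 0.984 across them. The single TRPM7 probe was not above background on any array, at log2 signals of 4.60 and 4.52 in shCntrl against 4.47 and 4.56 in shT7#1, so the knockdown could not be checked here. Of 7 markers of a mesenchymal breast line, 6 were above background on all 4 arrays, among them VIM and CD44. ESR1, PGR, FOXA1 and CDH1 of the 9 luminal markers were not above background on any array, while 5, including KRT18 and EPCAM, were above it on all 4. None of 7 endothelial markers, 2 of 7 fibroblast markers, 2 of 7 leukocyte markers and 1 of 8 neuronal and glial markers reached that level. The summed linear signal of the luminal markers was between 5439 and 5537 in shCntrl against between 4370 and 4427 in shT7#1. That of the neuronal and glial markers, mostly the tubulin gene TUBB3, was between 1014 and 1135 in shCntrl against between 836.2 and 863.3 in shT7#1. Sums were also lower without overlap for the mesenchymal markers (between 45425 and 48783 against between 40524 and 41016), the leukocyte markers (between 2515 and 2637 against between 2337 and 2339) and the fibroblast markers (between 323 and 364 against between 282 and 316), while those of the endothelial markers overlapped (between 170 and 183 against between 160 and 175). The part of these shifts in the results was not tested. In bulk RNA, fewer cells that express a gene and less RNA per cell cannot be told apart. Separate cultures are not stated for the 2 arrays of a group, so the p-values rest on a spread between arrays that may be technical.

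Of the 38 tested guidance genes, 3 rose, 3 fell and 32 were not called. The ligand genes SEMA4D, EFNA1 and SLIT2 rose by 0.99, 0.94 and 0.77 log2 units. The co-receptor gene NRP1 and the receptor gene EPHA4 fell by 0.97 and 0.64 log2 units. The ligand gene NTN1, not above background on either shT7#1 array, was called lower and can be given only as at least 1.15-fold lower. It passed the filter through the shCntrl arrays alone, so a difference was built into its selection. A call here is a limma adjusted p below 0.05 over all 14731 genes, of which 6.5% were called in either direction, 2.95% higher and 3.55% lower. The called counts of each family and list are to be read against these shares. Among the guidance genes the called share was 15.8%, a share that counts NTN1. At an unadjusted p under 0.05 there were 13 of the 38 guidance genes and 25.9% of all genes, the share against which the counts of each family at that threshold are to be read. The shT7#1 and shCntrl arrays did not overlap for 22 of the 38 genes, or 57.9%, against 55.7% of all tested genes. The median log2 change was -0.13 over the guidance genes and -0.00030 over all genes, and 26 of the 38 values were below 0. The guidance median was -0.07 without shCntrl replicate 1, -0.22 without shCntrl replicate 2, -0.11 without shT7#1 replicate 1 and -0.24 without shT7#1 replicate 2. All 6 calls lay close to the threshold, with limma adjusted p between 0.0146 and 0.0484. Without any 1 of the 4 arrays (shCntrl replicate 1 or 2, shT7#1 replicate 1 or 2), limma called 0 of the 38 guidance genes, while between 9 and 15 had an unadjusted p under 0.05, against between 18.5% and 20.7% of all genes. In these fits a group of 1 array is assumed to vary like the other group, and the sizes stayed near those reported, at -0.86 to -1.08 log2 units for NRP1 and at 0.90 to 1.08 for SEMA4D. The fits kept the 14731 genes and the values normalised over 4 arrays. When the other 3 arrays were normalised and filtered again, an alternative set beside the first after both outputs were seen, limma called EFNA1, SEMA4D and NRP1 without shCntrl replicate 2 and 0 guidance genes without each of the other arrays. The directions of the 6 genes were kept in each of these fits that gave a value, with NTN1 not tested in the refiltered fits without a shCntrl array. The groups of these 6 genes do not overlap, so in the fits that kept the normalised values no direction could turn. Under the processing choices that kept all 4 arrays, NRP1 stayed called in 8 of 9, SEMA4D in 7 of 9, EPHA4 and SLIT2 in 5 of 9, NTN1 in 5 of 8 and EFNA1 in 4 of 9, and 0 of the 6 on the authors' processed values.

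**Figure D1:**
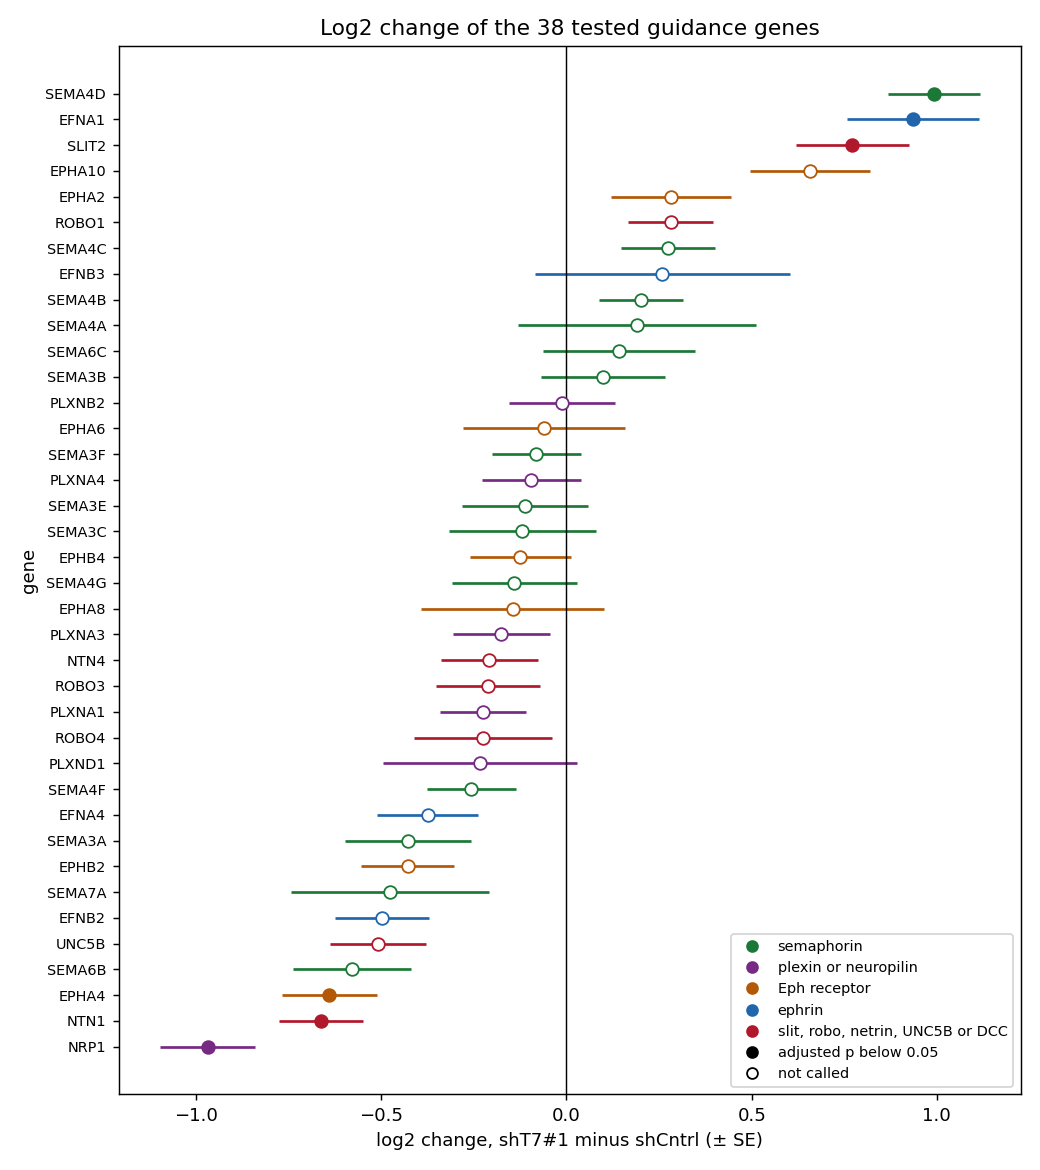
Log2 change of each tested guidance gene (horizontal axis, shT7#1 minus shCntrl, with the standard error of the limma fit as bars), ordered by size and coloured by family. Filled points are the 6 genes with an adjusted p below 0.05, with SEMA4D at 0.99 as the highest and NRP1 at -0.97 as the lowest value. NTN1, UNC5B and ROBO1 are fitted values against a group not above background, and the text gives their sizes as bounds.

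Start-site windows from RefSeq (GRCh38.p14), each running from 250 bases before to 50 bases after an annotated start, are shown for the called genes that the table holds, because the calls concern transcript levels and the windows surround annotated starts of those genes. Which starts these cells use was not measured. Such windows were found for 56 of the 64 guidance genes and for 4 of the 6 called genes. They are EFNA1 (chr1:155127626-155127925, plus strand), SEMA4D (chr9:89495607-89495906, minus strand), SLIT2 (chr4:20251655-20251954, plus strand) and EPHA4, with starts at chr2:221574153-221574452 and chr2:221572255-221572554, both on the minus strand. The motifs were chosen from a larger set after their matches had been seen. Capitals mark matches on either strand to the GC box GGGCGG or to the SOX core ACAATG, and adjoining matches run together.
EFNA1: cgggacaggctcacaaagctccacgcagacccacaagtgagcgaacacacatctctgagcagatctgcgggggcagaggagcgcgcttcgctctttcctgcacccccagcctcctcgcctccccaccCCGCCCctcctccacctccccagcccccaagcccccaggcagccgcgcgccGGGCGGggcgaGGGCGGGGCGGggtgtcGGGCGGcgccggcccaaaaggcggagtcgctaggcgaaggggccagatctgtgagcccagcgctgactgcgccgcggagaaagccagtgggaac
SEMA4D: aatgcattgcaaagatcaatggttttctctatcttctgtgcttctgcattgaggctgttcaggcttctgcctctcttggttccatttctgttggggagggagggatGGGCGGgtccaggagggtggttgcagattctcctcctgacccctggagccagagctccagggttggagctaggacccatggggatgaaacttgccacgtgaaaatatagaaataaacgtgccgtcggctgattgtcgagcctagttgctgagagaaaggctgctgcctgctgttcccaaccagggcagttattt
SLIT2: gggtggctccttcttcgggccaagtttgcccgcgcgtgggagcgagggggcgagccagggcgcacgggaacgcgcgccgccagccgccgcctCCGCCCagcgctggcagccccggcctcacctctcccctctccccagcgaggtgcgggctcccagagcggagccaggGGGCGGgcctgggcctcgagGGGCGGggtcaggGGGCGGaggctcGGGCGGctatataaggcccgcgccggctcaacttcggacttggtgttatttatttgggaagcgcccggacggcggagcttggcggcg
EPHA4, upstream start: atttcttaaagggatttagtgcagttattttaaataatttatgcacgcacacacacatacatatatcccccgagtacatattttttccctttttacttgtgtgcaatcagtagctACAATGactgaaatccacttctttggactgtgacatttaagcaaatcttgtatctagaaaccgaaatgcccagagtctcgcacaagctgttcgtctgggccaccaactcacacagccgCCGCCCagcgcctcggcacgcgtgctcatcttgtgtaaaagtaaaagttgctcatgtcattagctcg
EPHA4, downstream start: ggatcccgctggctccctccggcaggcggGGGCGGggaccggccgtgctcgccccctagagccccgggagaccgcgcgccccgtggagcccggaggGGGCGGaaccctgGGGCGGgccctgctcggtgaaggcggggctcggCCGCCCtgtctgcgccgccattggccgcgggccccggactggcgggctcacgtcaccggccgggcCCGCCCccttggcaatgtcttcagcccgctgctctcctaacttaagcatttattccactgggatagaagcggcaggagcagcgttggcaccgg
The EFNA1, SLIT2 and downstream EPHA4 windows held 5 GC box matches each and were rich in G and C, at 71.7%, 74.3% and 74.3%. The SEMA4D window held 1 GC box match at 52.3% G and C, and the upstream EPHA4 window held 1 at 43%. The GC box letters occurred in 45% of all 35116 windows and in 72.7% of the 88 windows of guidance genes. The SOX core occurred in the upstream EPHA4 window alone among these 5, in 6 of the 88 guidance windows (6.82%) and in 10.8% of all windows. The AP-1 letters TGANTCA occurred in none of these 5 windows, in 1 of the 88 guidance windows and in 7.71% of all windows. A match of letters is a description of the sequence and not a site of binding.

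Among the semaphorins, SEMA4D was the gene that rose. Of 20 semaphorin genes on the array 14 were tested, and by limma 1 rose and 0 fell, while 3 had an unadjusted p under 0.05 (25.9% of all genes did). SEMA4D (CD100) encodes a transmembrane semaphorin that can be shed and signals through B-class plexins. Its log2 signal was 7.76 and 7.94 on the shCntrl arrays and 8.87 and 8.81 on the shT7#1 arrays. Both shT7#1 values lay above both shCntrl values, and the 2 groups were separated by more than the spread within either. The log2 change was 0.99 ± 0.12 (SE), or 1.99-fold, at a limma adjusted p of 0.0146, and the authors' deposited table lists it at 2.08-fold. Another probe, whose older symbol C9orf164 is now assigned to SEMA4D and lies outside the symbol rule, was near background at 4.52 and 5.14 against 5.07 and 5.16. With the mean of both probes the SEMA4D change was 0.64 log2 units and the limma adjusted p 0.0762.

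The other class 4 semaphorins, which like SEMA4D span the membrane, had values on either side of 0. SEMA4A, SEMA4B and SEMA4C lay at 0.19 ± 0.32, 0.20 ± 0.11 and 0.27 ± 0.13 log2 units (SE), and SEMA4F and SEMA4G at -0.26 ± 0.12 and -0.14 ± 0.17. None of these 5 was called by limma. SEMA4A was above background on only 1 array of each group. The authors' deposited table lists SEMA4B at 0.93-fold, the opposite direction to the value given here. SEMA6B, a transmembrane semaphorin of another class, had log2 signals of 6.98 and 6.75 in shCntrl against 6.44 and 6.13 in shT7#1. Its groups did not overlap, yet the log2 change of -0.58 ± 0.16 (SE) had a limma adjusted p of 0.0915 and was not called. A second passing SEMA6B probe, above background on 1 array of each group, lay at -0.25 ± 0.25 log2 units (SE) with overlapping groups. SEMA7A, a lipid-anchored semaphorin, had log2 signals of 5.80 and 5.56 in shCntrl against 4.81 and 5.59 in shT7#1. The lower shT7#1 value was not above background, the groups overlapped, and the log2 change of -0.48 ± 0.27 (SE) was not called. It was -0.09 without shT7#1 replicate 1 and -0.87 without shT7#1 replicate 2.

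The secreted class 3 semaphorins, the usual ligands of neuropilin and plexin complexes, had 5 tested members, and limma called 0 of them, with 1 at an unadjusted p under 0.05, where 25.9% of all genes were. SEMA3A had log2 signals of 7.02 and 7.43 in shCntrl against 6.86 and 6.73 in shT7#1, a log2 change of -0.43 ± 0.17 (SE) at a limma adjusted p of 0.187. SEMA3C, SEMA3E and SEMA3F lay at -0.12, -0.11 and -0.08 log2 units, with overlapping groups in each. SEMA3B gave different values at its probes. Its brightest probe read 6.92 and 6.77 in shCntrl against 6.75 and 7.14 in shT7#1, a log2 change of 0.10 ± 0.17 (SE). Its second probe stayed within background on both shCntrl arrays, at 4.82 and 4.83, and was above it on both shT7#1 arrays, at 5.76 and 5.65. That probe was at least 1.698-fold higher in shT7#1. It passed the filter through the shT7#1 arrays alone, so a difference was built into its selection and no test of it is given. The authors' deposited table, with 1 value per gene, lists SEMA3B at 1.92-fold.

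**Figure D2:**
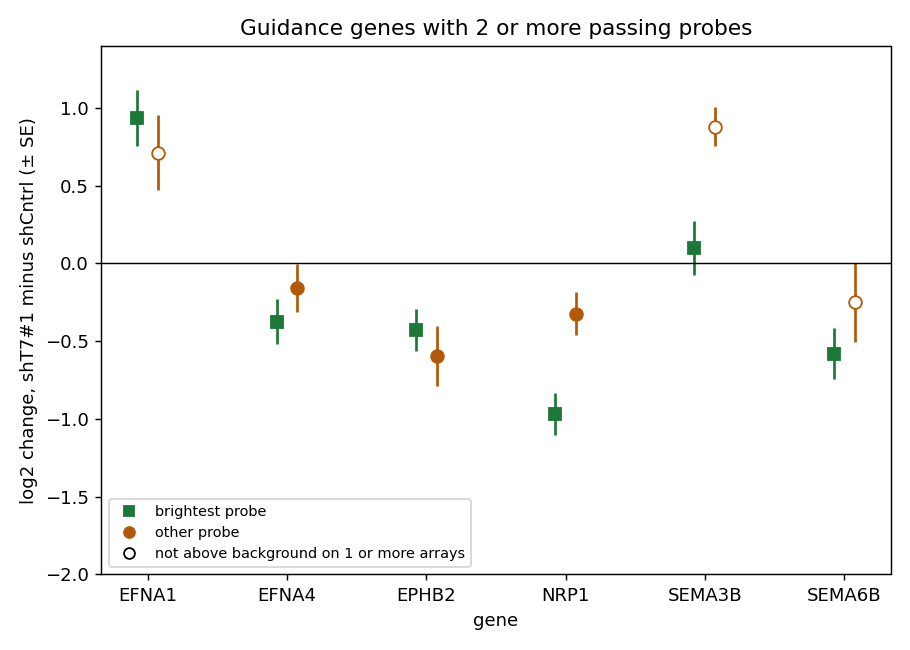
Log2 change (vertical axis, shT7#1 minus shCntrl, with the standard error from the fit over every passing probe) for the 6 guidance genes with a second passing probe under the symbol rule. The brightest probe and the other probe lay on the same side of 0 in every gene shown, but were 0.10 and 0.88 log2 units in SEMA3B and -0.97 and -0.32 in NRP1, and open symbols were not above background on at least 1 array.

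Among the receptors of semaphorins, NRP1 fell and no plexin was called. Of 11 plexin and neuropilin genes 6 were tested, of which 0 rose, 1 fell and 5 were not called. All 6 log2 changes were below 0, where 7370 of all 14731 genes were. Changes above 0 numbered 1 of the 6 without shCntrl replicate 1, 1 without shCntrl replicate 2 and 2 without shT7#1 replicate 2. Without shT7#1 replicate 1 all 6 stayed below 0. NRP1 encodes neuropilin 1, a co-receptor for class 3 semaphorins and for VEGF. At its brightest probe the log2 signal was 11.05 and 10.83 in shCntrl against 9.98 and 9.96 in shT7#1. Both shT7#1 values lay below both shCntrl values. The log2 change was -0.97 ± 0.13 (SE), a 1.96-fold difference, at a limma adjusted p of 0.0171. A second NRP1 probe, above background on all 4 arrays, read 8.73 and 8.48 in shCntrl against 8.28 and 8.27 in shT7#1. It also lay lower on both shT7#1 arrays, but by -0.32 ± 0.14 log2 units (SE) and at a limma adjusted p of 0.239 when every passing probe was tested by itself, a test in which 4.66% of probes were called. With the mean of both probes the NRP1 change was -0.65 log2 units and the limma adjusted p 0.048. The authors' deposited table, with 1 value per gene and not per probe, lists NRP1 at 0.63. The probe sequences and the NRP1 isoforms they bind were not analysed here.

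PLXNA1, a partner of neuropilins, had log2 signals of 8.50 and 8.41 in shCntrl against 8.26 and 8.20 in shT7#1. These values did not overlap, but the log2 change of -0.22 ± 0.12 (SE) was not called. PLXND1, a plexin known for its part in vessels, lay at 5.57 and 5.36 in shCntrl against at 5.61 and 4.85 in shT7#1. Its groups overlapped, its lower shT7#1 value was not above background, and its log2 change was -0.23 ± 0.26 (SE). Without shT7#1 replicate 2 it was 0.15. PLXNA3 and PLXNA4 lay at -0.18 and -0.10 log2 units. PLXNB2, a B-class plexin, read 9.38 and 9.16 in shCntrl against 9.36 and 9.16 in shT7#1, a log2 change of -0.01 ± 0.14 (SE). PLXNB1, the high-affinity receptor of SEMA4D, was above background on only 1 array and was not tested, nor was NRP2.

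Of 8 ephrin genes 4 were tested, of which 1 rose and 0 fell, and 3 had an unadjusted p under 0.05, where 25.9% of all genes did. EFNA1, a lipid-anchored ephrin that binds EPHA2 and other A-type receptors, had log2 signals of 6.55 and 7.01 in shCntrl against 7.68 and 7.76 in shT7#1. Both shT7#1 values lay above both shCntrl values, and the shCntrl arrays were the more scattered. The log2 change was 0.94 ± 0.18 (SE), or 1.91-fold, at a limma adjusted p of 0.0429, and the authors' deposited table lists it at 2.45-fold. A second EFNA1 probe stayed within background on both shCntrl arrays and lay at 5.81 and 5.15 in shT7#1, at least 1.45-fold higher. It too passed through the shT7#1 arrays alone, so it is no second test of EFNA1. EFNB2, a transmembrane ephrin, read 9.80 and 9.99 in shCntrl against 9.35 and 9.44 in shT7#1. Its groups did not overlap, and its log2 change of -0.50 ± 0.13 (SE) missed the threshold at a limma adjusted p of 0.0799. It was called lower in 3 of 9 processing choices that kept all 4 arrays (an offset of 50, no background correction, and detection on all 4 arrays). EFNA4 read 6.79 and 6.79 in shCntrl against 6.55 and 6.28 in shT7#1, a log2 change of -0.37 ± 0.14 (SE) that was not called. A second EFNA4 probe, above background on all 4 arrays, read 6.37 and 6.65 in shCntrl against 6.43 and 6.28 in shT7#1. Its groups overlapped, at a log2 change of -0.16 ± 0.15 (SE). EFNB3 was above background on 2 arrays only, with a log2 change of 0.26 ± 0.34 (SE).

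Of 14 Eph receptor genes 7 were tested, of which 0 rose and 1 fell, and 3 had an unadjusted p under 0.05, where 25.9% of all genes did. EPHA4, a receptor that binds ephrins of both classes, had log2 signals of 6.49 and 6.68 in shCntrl against 5.90 and 6.00 in shT7#1. Both shT7#1 values lay below both shCntrl values. The log2 change was -0.64 ± 0.13 (SE), at a limma adjusted p of 0.0484, and the authors' deposited table lists EPHA4 at 0.55. EPHA10, a receptor whose kinase domain is thought to be inactive, read 6.09 and 6.48 in shCntrl against 6.93 and 6.95 in shT7#1, a log2 change of 0.66 ± 0.16 (SE) at a limma adjusted p of 0.0735. It was called higher under the same 3 processing choices as EFNB2, while on the authors' processed values it lay at -0.13 log2 units. A second EPHA10 probe was above background on 1 array only and gives no size. EPHB2 read 7.67 and 7.56 in shCntrl against 7.26 and 7.10 in shT7#1, a log2 change of -0.43 ± 0.13 (SE) that was not called, and its second probe lay at -0.60 ± 0.19.

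EPHA2, the usual receptor of EFNA1 in breast epithelial cells, read 9.01 and 8.62 in shCntrl against 9.05 and 9.14 in shT7#1. Its log2 change of 0.28 ± 0.16 (SE) was not called by limma, with an adjusted p of 0.343. EPHB4, a receptor of EFNB2, lay at -0.12 ± 0.14 log2 units with overlapping groups. EPHA6 and EPHA8 were close to background and lay at -0.06 and -0.15 log2 units.

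**Figure D3:**
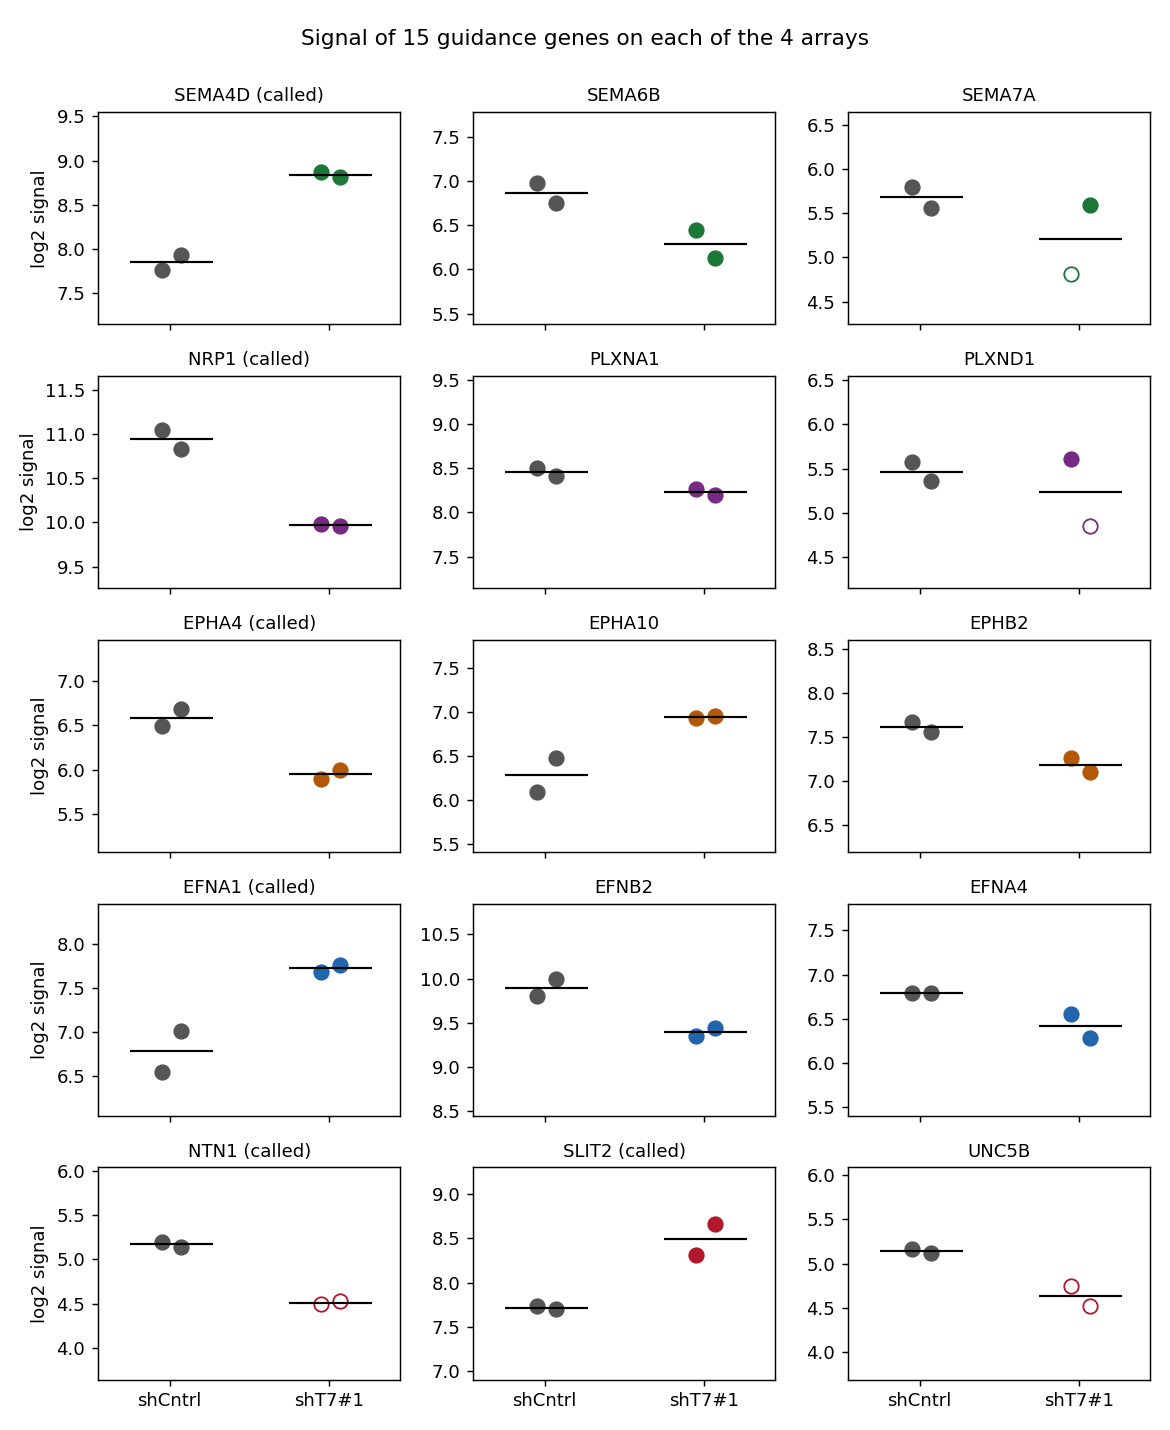
Log2 signal (vertical axis, every panel spanning the same number of log2 units) of 15 guidance genes on each array, with grey points for shCntrl, coloured points for shT7#1 and a line at each group mean (n = 2). Open points are not above background, and SEMA7A and PLXND1 are the genes shown whose groups overlap.

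Of the 11 slit, ROBO, netrin, UNC5B and DCC genes 7 were tested, of which 1 rose and 1 fell. Over all genes 2.95% were called higher and 3.55% lower. The gene that fell, NTN1, passed the filter through the shCntrl arrays alone. SLIT2, a secreted ligand of ROBO receptors, had log2 signals of 7.73 and 7.70 in shCntrl against 8.31 and 8.66 in shT7#1. Both shT7#1 values lay above both shCntrl values, with a gap between the 2 shT7#1 arrays. The log2 change was 0.77 ± 0.15 (SE), or 1.71-fold, at a limma adjusted p of 0.0460, and the authors' deposited table lists it at 1.78-fold. Its receptor gene ROBO1 stayed within background on both shCntrl arrays, at 4.81 and 4.78, and was above it on both shT7#1 arrays, at 5.04 and 5.12. ROBO1 passed the filter through the shT7#1 arrays alone, so a difference was built into its selection. Against the detection floor it was at least 1.098-fold higher. At a limma adjusted p of 0.196, no independent test, it was not called. ROBO3 and ROBO4 lay at -0.21 ± 0.14 and -0.23 ± 0.19 log2 units (SE) and were not called.

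NTN1 encodes netrin 1, a secreted ligand, and UNC5B a netrin receptor. NTN1 was just above background on the shCntrl arrays, at 5.20 and 5.14, and not above it on either shT7#1 array, at 4.49 and 4.52. It passed the filter through the shCntrl arrays alone, so a difference was built into its selection. The adjusted p given next is therefore no independent test. NTN1 was at least 1.15-fold lower in shT7#1, at a limma adjusted p of 0.0328 for the fitted log2 change of -0.66 ± 0.11 (SE). That size depended on the background correction, and the log2 change was -0.30 with an offset of 50 (limma adjusted p 0.0827) and -0.23 with no correction (0.0774), neither of them called. UNC5B showed the same layout, above background in shCntrl at 5.16 and 5.12 and not in shT7#1 at 4.74 and 4.52. UNC5B too passed the filter through the shCntrl arrays alone, so its adjusted p is no independent test either. Against the detection floor it was at least 1.13-fold lower, at a limma adjusted p of 0.0781, and was not called. NTN4 lay at -0.21 ± 0.13 log2 units (SE), and DCC was not above background on any array.

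Taken by role, 9 of 21 tested ligand genes and 3 of 17 tested receptor genes had log2 changes above 0, where 7361 of all 14731 genes did. The median log2 change was -0.11 over the ligands and -0.18 over the receptors. Of the ligands 3 rose and 1 fell, and of the receptors 0 rose and 2 fell. The ligand gene that fell was NTN1, and over all genes 2.95% were called higher and 3.55% lower. No test compared ligands with receptors, and the counts moved when 1 array was left out. Changes above 0 were 9 of 21 ligands and 5 of 17 receptors without shCntrl replicate 1, 8 and 4 without shCntrl replicate 2, 12 and 4 without shT7#1 replicate 1, where the ligand median turned to 0.09, and 5 and 6 without shT7#1 replicate 2. The 26 guidance genes that were not tested comprised 23 that were above background on no array and 3, EPHA5, NRP2 and PLXNB1, with no probe above it on more than 1 array. Among the genes with no signal above background were PLXNA2, PLXNB3, PLXNC1, EPHA3, EPHB3, EFNB1, SEMA5A, SEMA6A, SLIT3 and ROBO2. Of the tested genes, 27 were above background on all 4 arrays and 11 on 2 or 3.

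Other genes of these pathways were read from 5 lists of co-receptors, effectors and proteases, with 100 of 131 genes on the array tested. Of these, 1 rose, 8 fell and 91 were not called, a called share of 9% against 6.5% of all genes. The gene that rose, ARHGEF16, passed the filter through the shT7#1 arrays alone, so that share holds a difference built in by selection. ABL1 stands in the Eph list and in the slit list. Their median log2 change was -0.13. Without any 1 array, limma called between 0 and 1 of them, and between 0 and 3 when the other arrays were normalised and filtered again.

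The list of Eph and ephrin effectors held 5 of the calls, with 1 higher and 4 lower of 27 tested. Over all genes 2.95% were called higher and 3.55% lower. ARHGEF16, an exchange factor of the ephexin group that binds EPHA2, stayed within background on both shCntrl arrays, at 4.71 and 4.50, and read 5.82 and 5.91 in shT7#1. It was at least 1.89-fold higher, at a limma adjusted p of 0.00975, but passed the filter through the shT7#1 arrays alone, so a difference was built into its selection. NGEF, which encodes ephexin 1, an exchange factor activated by EPHA4, read 6.58 and 6.74 in shCntrl against 5.70 and 5.73 in shT7#1. It fell by 0.95 ± 0.12 log2 units (SE), at a limma adjusted p of 0.0156. The syntaxin gene STX1A fell by 1.14, the tyrosine kinase gene ABL1 by 0.68 and the metalloprotease gene ADAM19 by 0.74 log2 units. Their limma adjusted p-values were 0.0145, 0.0306 and 0.0342. The authors' deposited table lists ADAM19 at 0.87.

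Among 25 tested plexin and neuropilin partners 0 rose and 1 fell, where 2.95% and 3.55% of all genes did. The small GTPase gene RHOD, whose product binds plexins, read 9.01 and 8.91 in shCntrl against 8.16 and 7.77 in shT7#1, and fell by 1.00 ± 0.16 log2 units (SE) at a limma adjusted p of 0.0296. VEGFA, a ligand of NRP1 apart from the semaphorins, read 9.26 and 8.55 in shCntrl against 7.84 and 7.88 in shT7#1. Its log2 change was -1.04 ± 0.24 (SE), but the shCntrl arrays were far apart and the limma adjusted p of 0.0633 missed the threshold. DPYSL2, a mediator of semaphorin 3A signals, lay at -0.50 ± 0.12 log2 units and was not called.

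Of the 14 tested slit and ROBO effectors limma called 3 lower and 0 higher, where 3.55% and 2.95% of all genes were. Log2 changes were above 0 in 2 of the 14, where 35 of the 100 tested partner genes and 7361 of all 14731 genes were. Besides ABL1, the genes called lower were MYO9B and SDC1. MYO9B, a myosin that inactivates RHOA and is bound by ROBO1, lay at -0.78 ± 0.16 log2 units (SE), with limma adjusted p 0.0484. The proteoglycan gene SDC1 lay at -0.68 ± 0.14, with limma adjusted p 0.0490. Over 13 other processing choices, MYO9B stayed called in 6 and SDC1 in 4. A second SDC1 probe was above background on 1 array of each group only. Of the 10 tested netrin-related genes, MAGED1, whose product binds UNC5 receptors, was the only call, at -0.71 ± 0.11 log2 units (SE) and at -0.91 at its second probe. Its limma adjusted p was 0.0286 at the tested probe.

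**Figure D4:**
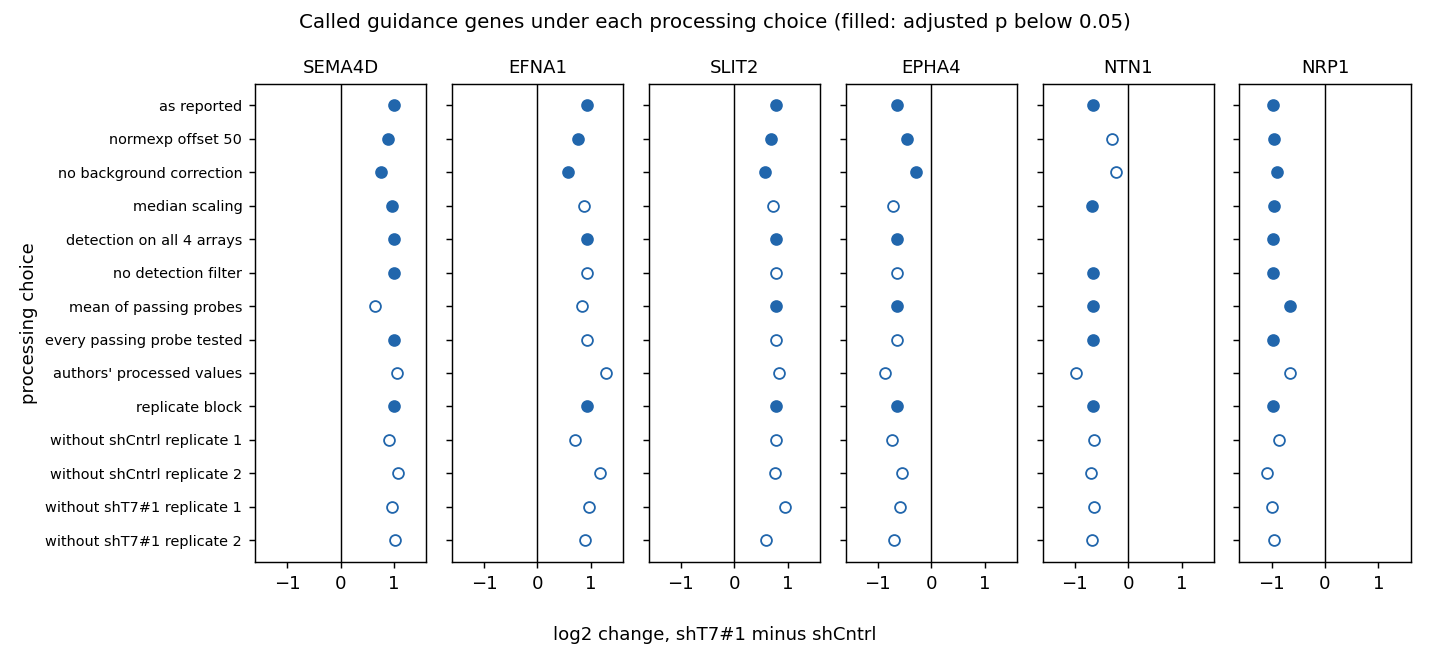
Log2 change (horizontal axis) of the 6 called guidance genes as reported and under each of 13 other processing choices (vertical axis), with filled points where the adjusted p was below 0.05. Every point kept the side of 0 of the reported value, but much of this was fixed in advance and is no test of stability. Detection on all 4 arrays, no detection filter, every passing probe and the replicate block reused the reported log2 change where they gave a value. The shCntrl and shT7#1 values of these genes do not overlap, so leaving out an array could not turn a side. Such a fit leaves a group without replicates, so only its size is read. NRP1 stayed called under 8 and SEMA4D under 7 of the choices that kept all 4 arrays. NTN1 has no value with detection on all 4 arrays.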

How the data were processed

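Total RNA of MDA-MB-231 cells was measured on Illumina HumanHT-12 v4 arrays, 2 with a scrambled and 2 with a TRPM7 hairpin, grouped by the labels. The deposited table gave 1 unnormalised signal intensity per probe and array, and the same deposited table gave detection p-values. The submitters' processing notes name GenomeStudio 2011.1. Per the file headers, the authors' processed log2 values came from RMA in ArrayStar. The authors' deposited table of fold ratios holds no error.

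The program limma (version 3.58.1, R 4.3.3) corrected the background by normexp (offset 16, negative controls inferred from the detection p-values), then quantile-normalised the arrays and took log2. A probe passed with detection p below 0.05 on at least 2 arrays, and each gene entered with the brightest of its passing probes. Symbols were updated through RefSeq names of GRCh38.p14, which changed 1 symbol among the guidance genes. The 14731 genes were fitted with lmFit and eBayes, the group as the only term, two-sided, with Benjamini-Hochberg adjustment. The fit was tested on simulated data. "At least" folds compare the bright group with the higher of the dim signal and the detection floor, between 4.92 and 4.98 log2 units per array. The number of arrays limits the precision.

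The guidance genes and lists were chosen with earlier results of these data known. Values on each array are given for called guidance genes and for the 3 largest changes of each family, with further genes added as receptors, ligands or probes of these after their values were seen. Named partner genes are those called and VEGFA and DPYSL2, which were added after their values were seen; the result of 1 of the 5 partner lists is not reported here, although its genes are in the totals. Alternatives covered background correction, scaling, detection filter, joining of probes, the authors' values, a replicate block and each array left out. The last and the authors' values were redefined after a first output had been seen, and both versions are given. The motifs searched in the start-site windows were chosen after matches to a larger set had been seen, so their shares describe the windows only. Slides were not modelled.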

Additional observations from a re-analysis of the deposited data

How the results depend on the processing

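Directions of the 15 guidance genes shown by array were largely kept over 13 alternatives, while calls were not. Much of the kept direction was fixed in advance and is no test of stability. Detection on all 4 arrays, no detection filter, every passing probe and the replicate block reused the same log2 changes where they gave a value. With 1 array left out and normalised values kept, only SEMA7A and PLXND1, whose groups overlap, could turn. Of 191 values (NTN1, UNC5B, PLXND1 and SEMA7A have none with detection on all 4 arrays), 136 kept direction and side of the threshold, 43 kept direction but lost the call, 10 gained a call and 2 turned. The turned values were EPHA10 at -0.13 on the authors' processed values and PLXND1 at 0.15 without shT7#1 replicate 2 (from -0.62 to 0.15 over the 4 fits without 1 array), and the cause was not tested. Against 3 higher and 3 lower guidance genes, the count of higher genes was 1 with median scaling, 1 without a detection filter, 1 with the mean of passing probes, 4 with offset 50, without background correction and with detection on all 4 arrays (EPHA10 added in each), and 0 on the authors' processed values. The lower count was 5 without background correction, 4 with offset 50 and 0 on the authors' processed values. Leaving out each array gave 0 higher and 0 lower guidance genes in all 4 fits, with fewer samples by construction and 1 group of 1 array assumed to vary like the other, while sizes ranged from -0.86 to -1.08 for NRP1 and from 0.90 to 1.08 for SEMA4D. The fits without 1 array and the fit of the authors' values were first run with other settings and then changed, after their output was seen, to vary 1 choice at a time. Both first versions are given here as alternatives chosen after seeing the data. With the other 3 arrays normalised and filtered again, from 0 to 2 guidance genes were higher and from 0 to 1 lower (EFNA1, SEMA4D and NRP1, all without shCntrl replicate 2), from 0 to 1 partner genes were higher and from 0 to 2 lower, from 13 to 130 of all genes were higher and from 3 to 98 lower, and PLXND1 ranged from -0.64 to 0.15. On the authors' processed values of 24981 genes with a group mean of at least 2.5, 7 genes were higher and 0 lower, with 0 guidance and 0 partner genes among them. Partner genes, 1 higher and 8 lower as reported, numbered 2 and 16 with offset 50, 5 and 17 without background correction and 0 and 13 with detection on all 4 arrays, and 1 was lower on the authors' processed values. Without 1 array they ranged from 0 to 1 higher and from 0 to 1 lower. All genes, 434 higher and 523 lower, numbered 962 and 1086 with offset 50, 1161 and 1262 without background correction, 699 and 818 with detection on all 4 arrays, 114 and 101 on the authors' processed values, and from 69 to 86 and from 38 to 53 without 1 array. A replicate block gave 3 higher and 4 lower guidance genes, the added one being SEMA6B. The labels do not say that replicate numbers mark a shared culture, and same-numbered arrays deviated together at r = 0.125 over genes. Signals near the floor, as for NTN1, UNC5B and ROBO1, give bounds only.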
